A study of Arabidopsis thaliana with 9 samples.

Results

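ChiC, AT2G43620 and AT5G39580 are 3 Arabidopsis thaliana genes for defence-type proteins that plant cells export, 2 of them chitinases and 1 a peroxidase. They were chosen by their low signal in roots that overexpress SCL3, each through the single probe set that the array annotation pairs with that gene alone; ChiC is the locus AT4G19810, and the others are named by their locus. They are 3 of 13286 genes named in this way on the array. The values that chose them, SCL3 OE against wild type and with them SCL3 OE against scl3, are therefore given as a description without a test. The 3 genes are tested only in comparisons that did not choose them. Other genes are tested in SCL3 OE as well, from lists chosen with earlier results of these data known.

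Chitinases cut chitin, the polymer of fungal cell walls and insect cuticles, which plants themselves do not make. Many are secreted to the wall space or kept in the vacuole and are counted among the pathogenesis-related proteins, and the chitin pieces they release are sensed by receptors with LysM domains. Class III peroxidases are secreted haem enzymes that use hydrogen peroxide to couple phenolics into lignin and to cross-link wall proteins, and some of them make reactive oxygen. Roots carry many members of both families, in root hairs, the endodermis and the vascular tissue as well as under attack.

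The 9 samples are labelled as whole roots at 7 days after germination, grown on MS medium in long days, with 1 Affymetrix ATH1 array each. There are 3 biological replicates each of wild-type Col-0, of scl3, which lacks SCL3 function through the allele scl3-1, and of the overexpressor SCL3 OE. Both altered lines are in the Col-0 background. The promoter that drives the SCL3 transgene, and how many independent lines the overexpressor stands for, are not given in the sources used here. SCL3 is a GRAS-family regulator known from gibberellin signalling and the root ground tissue. In whole-root RNA, fewer cells of a type and less RNA per cell cannot be told apart. The median signal of the arrays lay between 158 and 191, and their number, not a read depth, limits the precision.

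The arrays did not separate by genotype alone. By the bacterial and phage control RNAs spiked into each sample, they fell into 3 array sets. Set 1 holds replicates 1 and 2 of both Col-0 and scl3, set 2 holds replicate 3 of these 2 genotypes, and set 3 is made up of SCL3 OE alone. For SCL3 OE, then, what comes from the line and what comes from its array set cannot be told apart. Of the 20 leaf markers listed, 2 were named on the array (RCA and LHCB4.1), and their summed signal was 42875 to 44249 in set 2, 447 to 675 in set 1 and 1474 to 1845 in SCL3 OE. The set 2 arrays, though labelled whole root, thus carried a strong signal of leaf markers, and they enter the Col-0 and scl3 means. Of 15 root markers, 3 were named (PYK10, EXPA7 and EXPA18), all of them present, with a summed signal of 34209 to 39733 in set 1, 17516 to 17803 in set 2 and 19293 to 21482 in SCL3 OE. This sum hides that the 3 did not move alike in SCL3 OE. Their log2 differences from Col-0 ran from -0.60 to 0.98, and from -0.93 to 0.49 with array set 2 as a term of the fit. The part of these shifts in the results below was not tested. For comparisons with Col-0, the values of the 3 genes and the family counts are given with and without array set 2.

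ChiC, a class V chitinase known to respond to abscisic acid, jasmonate and salt, was among the brighter transcripts of wild-type and mutant roots. Its signal was 2718, 1921 and 2134 on the Col-0 arrays of replicates 1, 2 and 3, and 2610, 2523 and 3003 on those of scl3. In SCL3 OE the same probe set gave 67.3, 98.0 and 104.5. All 3 SCL3 OE arrays thus lay far under the other 6, which did not separate by genotype or by array set. In rank, ChiC stood between the 92.3rd and 95.0th percentile of all plant probe sets on the Col-0 and scl3 arrays and between the 34.7th and 41.5th on the SCL3 OE arrays.

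On the scale of log2(signal + 1), ChiC had a mean level of 11.13 ± 0.26 in Col-0, 11.40 ± 0.13 in scl3 and 6.48 ± 0.34 in SCL3 OE (SD, n = 3). The log2 difference of SCL3 OE from Col-0 was -4.64 ± 0.21 (SE of the fit) and that from scl3 was -4.92 ± 0.21. In mean signal this was 89.9 ± 19.8 in SCL3 OE beside 2258 ± 413 in Col-0 (SD, n = 3). Both comparisons rest on the same 3 SCL3 OE arrays. Once array set 2 was taken up as a term of the fit, the difference from Col-0 was -4.62, and without the arrays of set 2 it was -4.68. With an offset of 32 in place of 1, which damps dim signals, it was -4.23.

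AT2G43620, a chitinase at the end of a run of chitinase genes on chromosome 2, went down to the dim end of the array in SCL3 OE. Its Col-0 signals were 454, 456 and 841 in replicates 1, 2 and 3, and its scl3 signals 511, 440.5 and 1357. On the SCL3 OE arrays it gave 27.1, 25.7 and 13.7. These 3 values lie between the 17.8th and 24.5th percentile of plant probe sets, so that the size of the difference depends on the offset. Col-0 and scl3 overlapped, and in each of them the replicate 3 array was the highest.

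The mean log2 level of AT2G43620 was 9.13 ± 0.51 in Col-0, 9.40 ± 0.88 in scl3 and 4.48 ± 0.52 in SCL3 OE (SD, n = 3). SCL3 OE differed from Col-0 by -4.65 ± 0.49 and from scl3 by -4.92 ± 0.49 (log2, SE), and with an offset of 32 these became -3.46 and -3.72. The fold against Col-0 was 25.1 with the offset of 1 and 11.0 with the offset of 32. The high set 2 arrays enter these values. With array set 2 as a term the log2 difference from Col-0 was -4.25 ± 0.25 (SE, 19.0-fold lower). Without the arrays of set 2 it was -4.36 ± 0.26 (SE, 20.5-fold lower).

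AT5G39580, a class III peroxidase, had signals of 1813, 1799 and 1081 in Col-0 replicates 1, 2 and 3. In scl3 they were 2174, 2137 and 665. The SCL3 OE arrays gave 97.8, 152.5 and 69.3, again all under the other 6. Here the replicate 3 array was the lowest of its group in both Col-0 and scl3, the reverse of AT2G43620.

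The peroxidase had a mean log2 level of 10.57 ± 0.43 in Col-0, 10.51 ± 0.98 in scl3 and 6.67 ± 0.56 in SCL3 OE (SD, n = 3). Its log2 difference of SCL3 OE was -3.90 ± 0.51 from Col-0, or 14.9-fold lower, and -3.83 ± 0.51 from scl3 (SE). With array set 2 as a term the first was -4.30 ± 0.27, and without the arrays of set 2 it was -4.14 ± 0.24. Among the 13647 probe sets tested, the differences of AT2G43620, ChiC and AT5G39580 from Col-0 ranked 11th, 12th and 23rd from the lowest value. These ranks depend on the offset, and with an offset of 32 they were 18th, 4th and 14th. With the array set as a random block (duplicateCorrelation), the differences from Col-0 were -4.65 ± 0.84 for ChiC, -4.84 ± 1.2 for AT2G43620 and -3.70 ± 1.3 for AT5G39580 (log2, SE). For each of the 3 genes the order of group levels puts SCL3 OE lowest, below all 6 other arrays as for 5.62% of the 22746 plant probe sets, with Col-0 and scl3 next to each other and within their spread.

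**Figure D1:**
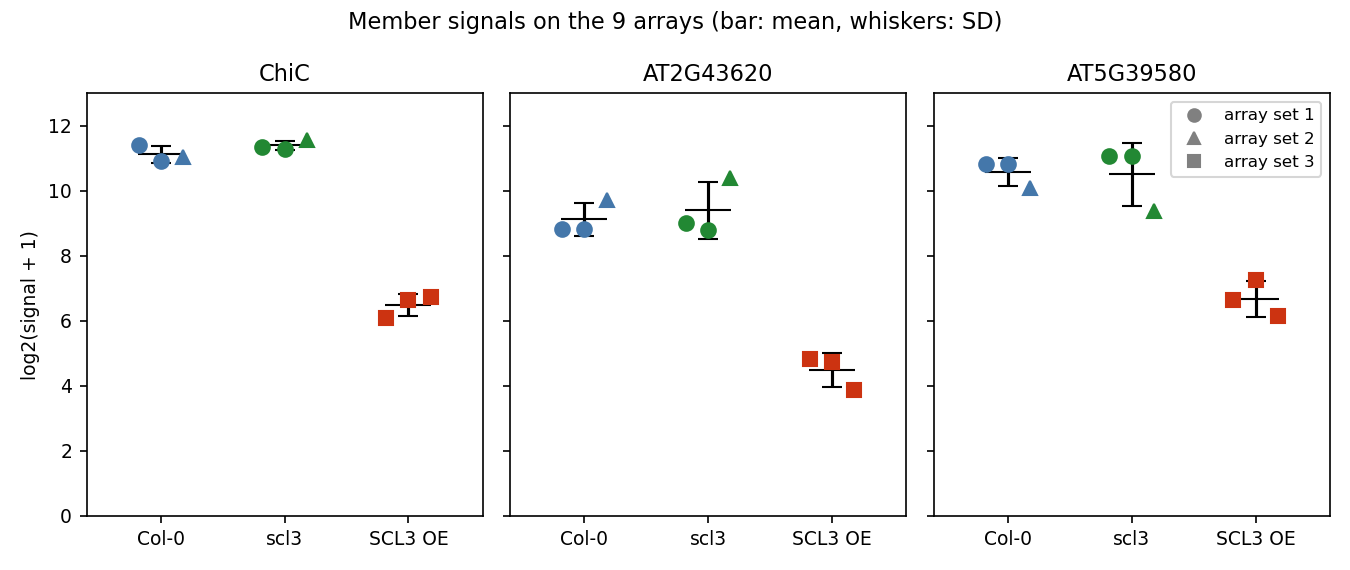
Signals of ChiC, AT2G43620 and AT5G39580 as log2(signal + 1) on each of the 9 arrays, by genotype; the horizontal bar is the group mean, whiskers are the SD (n = 3) and the marker shape gives the array set. The SCL3 OE arrays lie lowest in each panel, and the set 2 arrays are high for AT2G43620 and low for AT5G39580.

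In scl3 roots none of the 3 genes was called different from wild type. The log2 difference of scl3 from Col-0 was 0.28 ± 0.21 for ChiC, 0.27 ± 0.49 for AT2G43620 and -0.06 ± 0.51 for AT5G39580 (SE), with an adjusted p of 1.0 for each (limma, Benjamini-Hochberg over 13647 probe sets). In an exact 2-sided permutation test of 3 against 3 arrays the p was 0.3, 0.7 and 1, where 0.1 is the smallest such a test can give. This contrast shares its Col-0 arrays with the one that chose the genes. Over the whole array 1 probe set was called, or 0.00733% of those tested, and a p above the threshold does not show that the levels were equal. Within array set 1 (2 arrays against 2) the differences were 0.17, 0.06 and 0.26, and between the single arrays of set 2 they were 0.49, 0.69 and -0.70, so that the sign for AT5G39580 differed between the sets.

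Within Col-0 and scl3, the 3 genes differed in how they followed the array sets. In the fit with array set 2 as a term, AT2G43620 was higher in set 2 than in set 1, with a log2 difference of 1.20 ± 0.25 (SE; limma, adjusted p = 0.00089), a rise seen in Col-0 (0.88) and in scl3 (1.51). AT5G39580 was lower by 1.22 there (log2 difference -1.22 ± 0.27, adjusted p = 0.00126, limma), with -0.74 in Col-0 and -1.70 in scl3. Without scl3 replicate 3, the fall of AT5G39580 missed the threshold at -0.74 (adjusted p = 0.0545, limma). ChiC had 0.06 ± 0.18 and was not called (adjusted p = 0.758, limma). These calls stand against a background in which 54.7% of all tested probe sets were lower and 22.0% higher in set 2, so a call for this contrast is common.

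AT2G43620 ends a run of 6 chitinase genes that follow each other on chromosome 2, all 6 named on the array, and it had the lowest log2 difference of SCL3 OE from Col-0 among the 5 of them that were tested. This run was looked at after its values were seen, and AT2G43620 had been chosen for its fall in SCL3 OE. AT2G43590, 3 genes before it, also fell in SCL3 OE. Its signals were 5386, 5820 and 3165 in Col-0, 5993, 6187 and 5347 in scl3 and 1537, 1916 and 1740 in SCL3 OE, with all 3 SCL3 OE arrays under the other 6. That is a log2 difference from Col-0 of -1.42 ± 0.23 (SE, 2.68-fold lower, adjusted p = 0.0364, limma) and of -1.76 ± 0.23 from scl3 (adjusted p = 0.0161, limma).

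The direct neighbours of AT2G43620 were not called in SCL3 OE. AT2G43610, the next chitinase in the run, gave 10212, 13530 and 2088 in Col-0, 12429, 13941 and 2080 in scl3 and 6260, 5084 and 6971 in SCL3 OE. Its SCL3 OE arrays lay between those of set 1 and set 2, and the log2 difference from Col-0 was -0.13 ± 0.88 (SE, adjusted p = 0.966, limma). AT2G43600 had 0.35 ± 0.36, and the first gene of the run, CHI, had -0.48 ± 1.4 (SE), neither of them called (adjusted p = 0.761 and 0.922, limma). On the other side of AT2G43620, AT2G43630 and AT2G43640 had 0.13 ± 0.14 and 0.09 ± 0.12 (SE) and were not called. AT2G43580 was too dim for the tests, at 4.99 ± 1.4, 4.89 ± 1.9 and 4.52 ± 0.51 in Col-0, scl3 and SCL3 OE (mean log2 level ± SD, n = 3).

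The low Col-0 and scl3 values of set 2 enter these differences. CHI gave signals of 1227 and 1608 in Col-0 set 1 but 59.1 in set 2, 1380 and 2249 against 120 in scl3, and 294, 396 and 375 in SCL3 OE. With array set 2 as a term CHI fell in SCL3 OE by 1.88 (log2 difference -1.88 ± 0.22, adjusted p = 7.24e-05) and AT2G43610 by 0.99 (log2 difference -0.99 ± 0.14, adjusted p = 0.000242), both in limma. In set 2 itself, CHI (-4.21), AT2G43610 (-2.58), AT2G43600 (-0.90) and AT2G43590 (-0.51) were lower than in set 1 and AT2G43620 was higher, each with a call in its own direction (adjusted p from 1.06e-08 to 0.00442, limma). The neighbours on chromosomes 4 and 5 gave less to compare. AT4G19820, the chitinase after ChiC, was too dim for the tests (5.42 ± 1.3 in Col-0 and 3.09 ± 1.3 in SCL3 OE, mean log2 level ± SD), and the tested genes beside AT5G39580 (AT5G39570, AT5G39590 and AT5G39600) had log2 differences between -0.34 and 0.04, with no call.

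**Figure D2:**
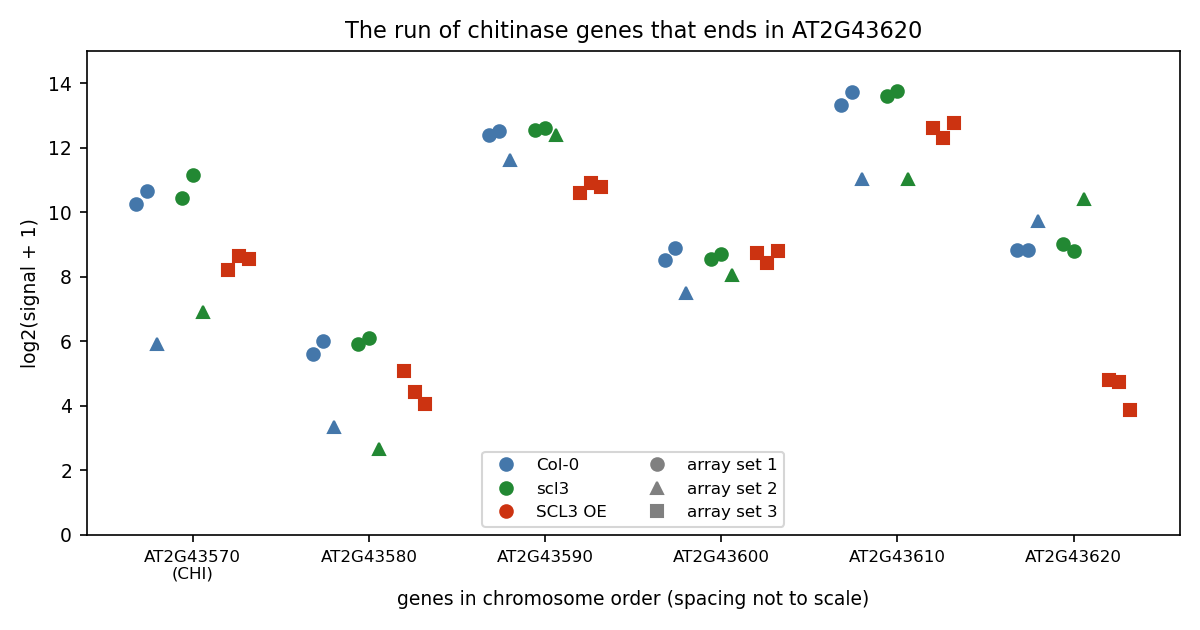
Signals as log2(signal + 1) of the 6 chitinase genes of the run, in chromosome order, for each array; colour gives the genotype and marker shape the array set. AT2G43620 at the right is lowest in SCL3 OE, and AT2G43590 is lower there on a smaller scale, while the set 2 arrays are low for the other genes of the run and high for AT2G43620.

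How many of the other chitinases were called in SCL3 OE depended on the fit. Of the 24 family genes listed, 15 were named on the array and 11 were bright enough for the tests. Besides ChiC and AT2G43620, 1 of 9 tested genes was called in SCL3 OE against Col-0, AT2G43590, which was lower, while 0.762% of all probe sets tested were called lower and 0.44% higher. Its call held under the filter, offset and scaling alternatives and with the replicate block, and was lost in 7 of the 9 fits that left out 1 array, all but those without Col-0 replicate 3 or scl3 replicate 3. It was also lost with the array set as a random block (adjusted p = 1.0 with an estimated correlation, limma), a fit in which 0.0% of all probe sets were called in either direction and 250 of 13647 had an unadjusted p under 0.05. The 9 log2 differences ran from -1.42 to 0.93 with a median of -0.13, against 0.13 over all probe sets tested, and quantile normalization turned the list's median to 0.11. AT3G47540 (-0.59 ± 0.24, SE) and AT4G01700 (-0.48 ± 0.21), for which all SCL3 OE arrays also lay under the other 6, did not pass (adjusted p = 0.338 and 0.397, limma). AT4G19720, another chitinase-family gene on chromosome 4, had 0.93 ± 0.75 and AT1G56680 had 0.33 ± 0.27 (SE), both uncalled.

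With array set 2 as a term, 5 of the 9 other chitinases fell and 0 rose in SCL3 OE, where 16.0% of all probe sets were called lower and 17.6% higher. These were CHI, AT2G43590 (-1.59 ± 0.13), AT2G43610, AT3G47540 (-0.69 ± 0.19) and AT1G02360 (-0.45 ± 0.13), the last with the opposite sign in the fit on group alone (0.46). The largest of these differences was less than that of ChiC or AT2G43620, which follows from the choice of these 2 genes by their fall. Without the arrays of set 2, 6 of the 9 fell and 0 rose, where 18.2% of all probe sets were called lower and 19.8% higher. Against scl3 with group alone, 1 of 9 fell and 0 rose, beside 0.96% lower and 0.945% higher among all probe sets. Counted over all 13 other named chitinases, tested or not, 3 had all SCL3 OE arrays under the other 6 and 0 had them above, next to 5.62% and 10.2% of the 22746 plant probe sets.

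**Figure D3:**
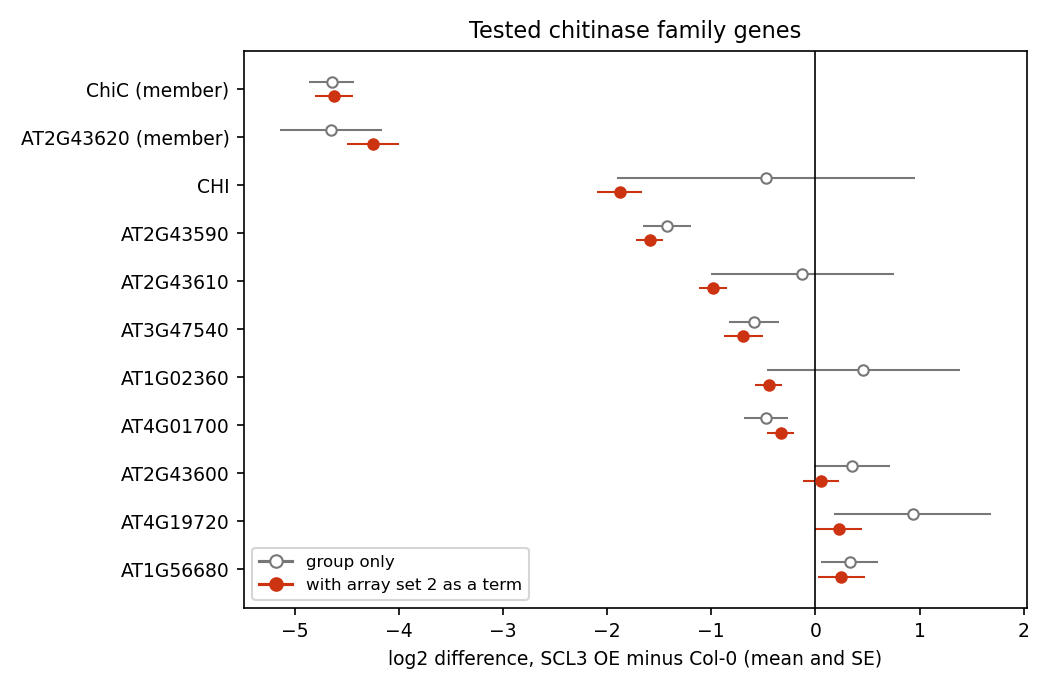
Log2 difference of SCL3 OE from Col-0 for the 11 tested chitinase genes, with its SE as whiskers, from the fit on group alone (open) and the fit with array set 2 as a term (filled). ChiC and AT2G43620, which were chosen for their fall, lie beyond -4 in both fits, and the other 9 between -1.88 and 0.93.

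Class III peroxidases other than AT5G39580 were not called in the fit on group alone and were called in both directions once array set 2 was a term or was left out. Of the 73 listed, 55 were named and 40 tested. With group alone 0 of the 39 others passed in SCL3 OE against Col-0 (limma). An unadjusted p under 0.05 was found for 13 of the 39, a larger share than the 13.2% of all probe sets tested. Their log2 differences spanned -5.70 to 1.67 with a median of 0.26, and 18 of 39 were negative. The set 2 arrays stood apart for many of them, and their part in the missing calls was not tested. When Col-0 replicate 3 was left out 5 were called, and 2 when scl3 replicate 3 was. In these fits 1.17% and 1.32% of all probe sets were called lower and 0.725% and 1.08% higher.

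PRX52, a peroxidase known from lignin formation in the stem, had the lowest log2 difference of the family with the offset of 1. Its signals were 1047, 872 and 56.7 in Col-0, 1405, 933 and 52.5 in scl3, and 4.16, 5.89 and 9.62 in SCL3 OE. AT4G36430 gave 5059, 4385 and 272 in Col-0, 5861, 5495 and 255 in scl3, and 167, 142 and 105 in SCL3 OE. In both genes the SCL3 OE arrays lay under the other 6, and the set 2 arrays lay far under set 1. With group alone they had log2 differences from Col-0 of -5.70 ± 1.5 and -3.74 ± 1.5 (SE) and did not pass (adjusted p = 0.124 and 0.315, limma). The SCL3 OE signals of PRX52 are near the floor, and with an offset of 32 its difference was -3.52 ± 1.2, beside -3.53 for AT5G39580. With array set 2 as a term PRX52 and AT4G36430 fell by 7.11 and 5.17 (log2 differences -7.11 ± 0.29 and -5.17 ± 0.16, adjusted p = 5.65e-08 and 2.15e-08, limma). PRX52 was bright enough on average for the tests only through its set 1 arrays, so its call is not independent of that choice. The value for AT5G39580 moved less between these fits, from -3.90 to -4.30.

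In that second fit 25 of the 39 other peroxidases were called, 17 lower and 8 higher, next to 16.0% and 17.6% of all probe sets. After PRX52 and AT4G36430 the lowest were AT5G06730 (-3.11 ± 0.38) and AT4G08780 (-2.61 ± 0.20), and the highest were AT5G64120 (1.68 ± 0.11), AT3G01190 (1.24 ± 0.15), AT5G15180 (0.98 ± 0.18) and AT5G24070 (0.85 ± 0.27; log2, SE). AT3G01190 had signals of 2884, 4019 and 1575 in Col-0, 2414, 3266 and 1011 in scl3 and 8544, 8027 and 8671 in SCL3 OE, so that its SCL3 OE arrays were above all others. Of the 54 other named peroxidases, 9 had all SCL3 OE arrays below and 11 had them above the other 6 arrays, beside 5.62% and 10.2% over the whole array. Without the arrays of set 2, 19 fell and 9 rose, where 18.2% and 19.8% of all probe sets were called.

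Against scl3 with group alone, 1 of the 39 was called, AT2G37130, which rose (log2 difference 1.04 ± 0.19, SE, adjusted p = 0.037, limma), beside the 0.945% of probe sets called higher there. In set 2 against set 1, 26 of the 39 were lower and 6 higher, where the background was 54.7% and 22.0%. AT5G39580 is thus among the lower group there.

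**Figure D4:**
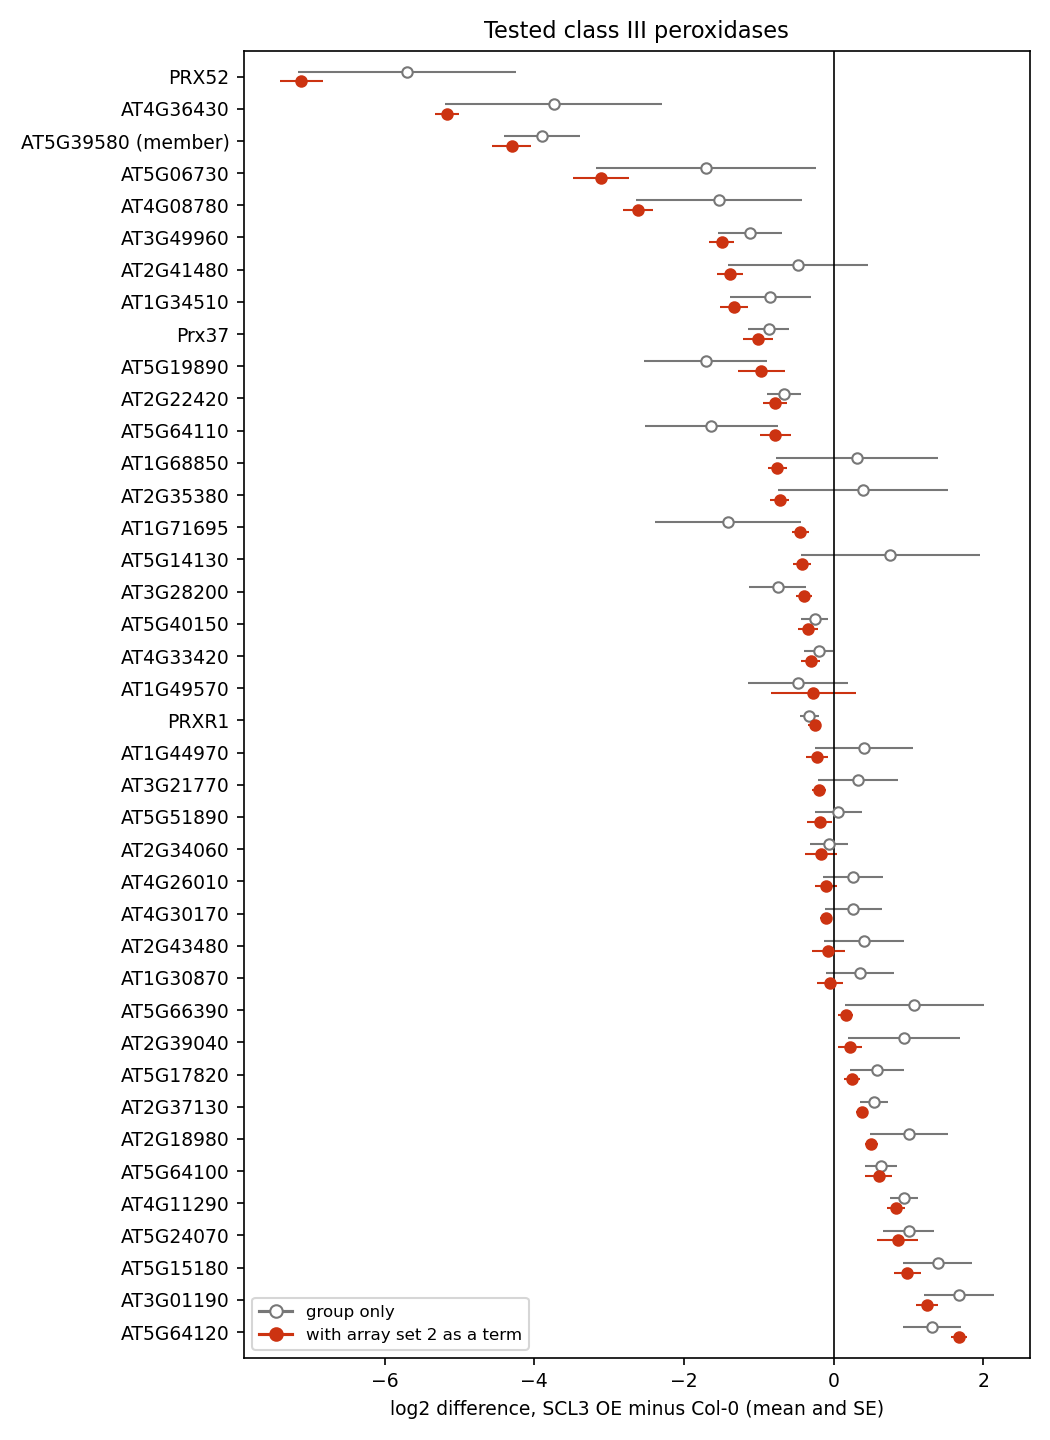
Log2 difference of SCL3 OE from Col-0 for the 40 tested class III peroxidases, with its SE as whiskers, from the fit on group alone (open) and the fit with array set 2 as a term (filled). PRX52, AT4G36430 and AT5G39580 lie at the low end and AT5G64120 and AT3G01190 at the high end.

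Few other defence genes could be read. Of 71 genes on 4 further lists, 11 were named and 5 tested, and none was named from the lists of salicylate and camalexin or of jasmonate and ethylene. STZ, a zinc finger repressor induced by stress, had signals of 1532, 1529 and 1431 in Col-0, 1140, 1222 and 840 in scl3 and 249, 181 and 176 in SCL3 OE, and fell in SCL3 OE by 2.90 (log2 difference -2.90 ± 0.20, adjusted p = 0.00276, limma). It was the 1 call among the 5, beside 0.762% of all probe sets lower, and it was lost with the array set as a random block (-2.85 ± 0.68, SE, adjusted p = 1.0 with an estimated correlation). OSM34, an osmotin-like protein of the pathogenesis-related type, gave 9315, 8747 and 2054 in Col-0, 11104, 10580 and 7561 in scl3 and 1241, 1321 and 1803 in SCL3 OE. Its SCL3 OE arrays lay under the other 6, with a log2 difference from Col-0 of -1.94 ± 0.54 (SE) that did not pass (adjusted p = 0.159, limma) and that was called once set 2 was a term (-2.38, adjusted p = 6.53e-05, limma).

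WRKY53, a regulator of senescence and defence, was likewise called lower (-1.81, adjusted p = 0.00124, limma) and BIK1, a kinase that acts below immune receptors, higher (0.39, adjusted p = 0.014, limma) in the fit with set 2, while WRKY22 was not called, which makes 4 of 5 called there beside 16.0% of all probe sets lower and 17.6% higher. In scl3 against Col-0, 0 of the 53 other tested genes of the 2 families and the defence lists passed in limma, next to 0.00733% of all probe sets. Of these 53 genes 2 had an unadjusted p under 0.05 in limma, beside 0.366% of all probe sets. These 2 genes are too few to read as a difference of the lists in scl3.

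The genes with the most similar profiles were sought among 7340 tested probe sets of 1 gene by Pearson's r over the 9 arrays, as a description, since in each case 3 of the 9 points lie at a low level. Closest to ChiC were AT5G18470 (r = 0.990), AT2G41890 (0.988), AT3G15680 (0.986), AT3G23450 (0.983) and AT2G23680 (0.983). AT3G23450 had mean log2 levels of 8.10 ± 0.35 in Col-0, 8.44 ± 0.17 in scl3 and 5.28 ± 0.23 in SCL3 OE (SD, n = 3), while AT2G41890 went only from 7.96 ± 0.07 to 7.29 ± 0.04, so a like shape did not need a like size.

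Closest to AT2G43620 were AT3G26450 (r = 0.994), FHL (0.988), AT1G75900 (0.987), AT4G29020 (0.985) and AT2G24600 (0.983). FHL, which helps carry the light receptor phytochrome A into the nucleus, had mean log2 levels of 7.97 ± 0.06, 7.92 ± 0.41 and 5.81 ± 0.04 in Col-0, scl3 and SCL3 OE (SD, n = 3). Closest to AT5G39580 were AT4G23670 (r = 0.990), AT5G01870 (0.978), OCT1 (0.973), BCAT4 (0.973) and AT3G28940 (0.972). BCAT4, an aminotransferase of glucosinolate synthesis, had 11.89 ± 0.68, 11.96 ± 0.65 and 9.74 ± 0.37 (mean log2 level ± SD, n = 3), and OCT1, an organic cation transporter, had a log2 difference of SCL3 OE from Col-0 of -8.61 ± 0.79 (SE). The mean log2 level of OCT1 in SCL3 OE was 1.1 ± 0.15 (SD, n = 3), near the floor, which limits this value. With an offset of 32 OCT1 left the 5 genes closest to AT5G39580, and AT5G38710 entered. Over the 7 arrays outside set 2 these lists kept 0, 1 and 1 of their 5 genes, and PRX52 was then among those of ChiC (r = 0.998).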

How the data were processed

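The authors deposited 1 signal intensity per probe set, on a linear scale; the submitters' processing notes name MAS5 and Affymetrix Expression Console 1.1. The trimmed mean was 500.0 on every array, so values were used as deposited, and no detection calls were used here. Values were analysed as log2(signal + 1). The 13647 of 22746 plant probe sets with a mean above the 40th percentile (6.65 on the log2 scale) were fitted in limma 3.58.1 (R 4.3.3) over all 9 arrays with group as the only term, an intensity trend and moderated 2-sided tests; p-values were adjusted by Benjamini and Hochberg's method over all 13647 and called under 0.05. The fit was tested on simulated data that held no shift between array sets. That test therefore does not cover how the sets act on the calls. Because the filter used the mean of all 9 arrays, a gene low in SCL3 OE alone could pass it more readily than one high there alone. The genes, their lists and the array set term were chosen with earlier results of these data known. Named genes were the 3 genes, tested chitinases, up to 4 called genes per list, direction and comparison with the largest difference (or the one with the smallest p), and the 5 most similar profiles per gene.

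Array sets came from complete-linkage clustering of 45 spiked-in control probe sets into 3. For the 3 replicate numbers, the deviations of a Col-0 array and its scl3 namesake from their group means had correlations of 0.90, 0.89 and 0.95. Unlike numbers within set 1 gave 0.86 (Col-0 replicate 1, scl3 replicate 2) and 0.89 (Col-0 replicate 2, scl3 replicate 1). The likeness thus follows the array sets. Because each group mean includes its set 2 array, these correlations cannot show whether arrays within set 1 are paired by number. Namesakes of Col-0 and SCL3 OE had correlations of -0.10, 0.07 and -0.09. Gene names came from the platform annotation (13513 probe sets with 1 gene, 503 with several, 8730 not named here), and 13436 were matched to RefSeq's TAIR10.1 table, used for names and gene order only. Alternatives were an offset of 32, no filter, quantile normalization, no trend, a replicate block, array set 2 as a fixed term, the array set as a random block, fits without set 2 and without each array. Figures were drawn with matplotlib 3.10.9.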

Additional observations from a re-analysis of the deposited data

How the results depend on the processing

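The low level of ChiC, AT2G43620 and AT5G39580 in SCL3 OE kept its sign under each alternative run. As the genes were chosen for this fall, the kept sign is a description and adds no support. Leaving out 1 array gave -4.76 to -4.45, -4.82 to -4.35 and -4.19 to -3.63 against Col-0 and -5.04 to -4.73, -5.23 to -4.42 and -4.40 to -3.55 against scl3. With an offset of 32 ChiC had -4.23 and -4.50 and AT2G43620 -3.46 and -3.72. For scl3 against Col-0 no fit called any of the 3 genes. AT5G39580 turned positive without set 2 (0.26), and without 1 array the differences ran from 0.17 to 0.42 for ChiC, -0.24 to 0.58 for AT2G43620 (negative without scl3 replicate 3) and -0.35 to 0.50 for AT5G39580 (positive without Col-0 replicate 1 or 2 at 0.06 each and without scl3 replicate 3). With the replicate block these differences were 0.28, 0.27 and -0.06 and no call changed. Set 2 against set 1 gave -0.10 to 0.23 for ChiC without 1 array (negative without Col-0 replicate 2 at -0.02 or scl3 replicate 3) and -0.027 under quantile normalization, 0.88 to 1.51 for AT2G43620 and -1.70 to -0.74 for AT5G39580. Other chitinases called in SCL3 OE numbered 1, and 5 with the set term, 6 without set 2, 0 with a random block and 0 to 1 without 1 array. For peroxidases it was 0, then 25 with the set term, 28 without set 2 and 0 to 5 without 1 array. For the defence lists it was 1, then 4 with the set term, 4 without set 2, 0 with a random block and 1 to 2 without 1 array. In scl3 it was 0 throughout. Without set 2, the most similar genes shared 0, 1 and 1 of 5. The causes were not tested. Signals near the floor limit the fold changes of AT2G43620, PRX52 and OCT1.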

Other observations

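Some peroxidases that were too dim on average for the tests still differed between arrays. AT5G19880, a class III peroxidase, had signals of 117, 75.8 and 7.37 in Col-0, 78.2, 101 and 2.50 in scl3 and 2.54, 1.16 and 0.98 in SCL3 OE. Its SCL3 OE arrays and the set 2 arrays were both low, and the groups overlapped at scl3 replicate 3. AT5G58390, another class III peroxidase, gave 493 and 456 on the Col-0 and scl3 arrays of set 2 and between 1.87 and 12.3 on the other 7. AT4G16270 was the dim peroxidase with all 3 SCL3 OE arrays above the other 6, at a mean log2 level of 6.44 ± 0.08 against 5.45 ± 0.27 in Col-0 (SD, n = 3). These genes were chosen after their values were seen.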
